A study of Homo sapiens with 12 samples.

Results

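In all, 9 genes of nucleotide synthesis were followed in HK-2, an immortalised cell line that derives from the proximal tubule of the human kidney. They were RRM1, RRM2, TYMS, TK1, DUT, DCK, CAD, UMPS and DHODH, and every probe set annotated to 1 of these symbols alone was taken, which gave 22 of the 54613 probe sets of the array, or 9 of its 19775 genes. The cells had received a low dose of Ota for 72 h, the vehicle as control for 72 h, a low dose of Ota for 24 h, or the vehicle for 24 h, with 3 Affymetrix expression arrays in each group and 12 in all. The cells of all 4 groups grew in a medium that held insulin, hydrocortisone and epidermal growth factor and were treated near confluency. No concentration is given in the labels, which leave Ota unexplained; OTA is the usual abbreviation of the mycotoxin ochratoxin A. The arrays of a group are called biological replicates, but nothing says what the cultures shared, so a p-value here refers to the spread among these samples and no wider.

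These enzymes make the pyrimidine bases and the deoxynucleotides that a cell needs to copy its DNA. CAD, DHODH and UMPS carry out the de novo synthesis of uridine monophosphate, from which the other pyrimidine nucleotides derive. Ribonucleotide reductase, built from the RRM1 and RRM2 proteins, turns ribonucleotides into deoxyribonucleotides, DUT removes dUTP and yields dUMP, and TYMS methylates dUMP to thymidine monophosphate. TK1 and DCK instead recover deoxynucleosides by phosphorylation. In dividing cells RRM2, TYMS and TK1 are best known as genes expressed around S phase, the stage in which DNA is copied, whereas proximal tubule cells in the kidney divide rarely.

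Values are log2 GCRMA signals, in which 1 unit is a doubling, and the level of a gene was read from its probe set with the highest mean. A gene was tested where this probe set exceeded 4 on the log2 scale on 3 or more arrays, as did all 9 genes here and 10699 genes in all. At the level of probe sets 16 of the 22 passed, and the other 6 were above that level on at most 2 arrays. Arrays of a group correlated at 0.986 to 0.994 across the genes tested. The epithelial markers were all above the filter (6 of 6), but of 10 proximal tubule markers only SLC3A1 was, and the list's median lay between 2.53 and 2.62 on each array, so the defining transport genes of that cell type were near the floor. Of 6 fibroblast markers 3 were above the filter, COL1A1, LUM and DCN, and the median of the 6 lay between 5.06 and 5.94 on each array. None of 5 endothelial and 4 leukocyte markers was above the filter (0 of each). As a sign of RNA quality, the 3' actin control probe set exceeded the 5' one by 1.28 ± 0.08 in Ota cells at 72 h, 1.18 ± 0.17 in control cells at 72 h, 1.17 ± 0.12 in Ota cells at 24 h and 1.01 ± 0.21 in control cells at 24 h (SD, n = 3 each).

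The start regions of the genes were searched for short words known from promoters of cell cycle and growth genes: the E2F-type words TTTCCCGC, TTTGGCGC, TTTCGCGC and TTTGCCGC, the CCAAT box that NF-Y binds, the cell cycle homology word TTTGAA, and the E-box CACGTG. The windows run from 250 bases before to 50 bases after a RefSeq transcript start on GRCh38.p14, 300 bases each, and there were 14 for the 9 genes. Both strands were searched and no matches overlapped. The windows below belong to RRM2, TK1, TYMS, DUT and DCK, with each match in capitals in the strand of the gene. These genes were all higher in Ota cells at 72 h. RRM1 was higher too, but its window, with 1 CCAAT and 1 TTTGAA word, is not printed.
RRM2, chr2:10122489-10122788, plus strand, 3 CCAAT words: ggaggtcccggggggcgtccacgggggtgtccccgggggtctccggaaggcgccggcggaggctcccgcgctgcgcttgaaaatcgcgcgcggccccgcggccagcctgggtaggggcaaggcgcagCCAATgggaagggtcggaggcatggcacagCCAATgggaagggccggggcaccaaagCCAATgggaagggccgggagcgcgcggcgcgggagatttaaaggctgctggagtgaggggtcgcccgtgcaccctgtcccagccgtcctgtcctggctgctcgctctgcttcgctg
TK1, chr17:78187003-78187302, minus strand, 2 CCAAT words read on the opposite strand: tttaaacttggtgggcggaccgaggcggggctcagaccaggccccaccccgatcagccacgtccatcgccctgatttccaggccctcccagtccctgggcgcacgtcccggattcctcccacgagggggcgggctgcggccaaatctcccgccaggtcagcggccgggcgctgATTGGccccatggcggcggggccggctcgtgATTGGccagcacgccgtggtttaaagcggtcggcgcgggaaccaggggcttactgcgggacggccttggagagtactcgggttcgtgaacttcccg
TYMS, chr18:657403-657702, plus strand, 1 E2F-type word: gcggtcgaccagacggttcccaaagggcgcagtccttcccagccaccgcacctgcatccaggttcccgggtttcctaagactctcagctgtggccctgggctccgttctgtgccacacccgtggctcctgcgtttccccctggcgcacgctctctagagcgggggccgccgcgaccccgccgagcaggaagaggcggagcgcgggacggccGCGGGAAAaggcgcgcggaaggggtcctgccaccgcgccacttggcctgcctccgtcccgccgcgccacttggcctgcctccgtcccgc
DUT, chr15:48331947-48332246, plus strand, 2 E2F-type words and 2 TTTGAA words: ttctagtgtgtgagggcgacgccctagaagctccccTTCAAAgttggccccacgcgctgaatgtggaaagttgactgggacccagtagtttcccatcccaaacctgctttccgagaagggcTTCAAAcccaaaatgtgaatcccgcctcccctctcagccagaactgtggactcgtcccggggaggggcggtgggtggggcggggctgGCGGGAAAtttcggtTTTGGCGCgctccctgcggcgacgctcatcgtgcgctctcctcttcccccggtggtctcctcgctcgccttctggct
DCK, chr4:70993399-70993698, plus strand, 1 E-box and 1 E2F-type word: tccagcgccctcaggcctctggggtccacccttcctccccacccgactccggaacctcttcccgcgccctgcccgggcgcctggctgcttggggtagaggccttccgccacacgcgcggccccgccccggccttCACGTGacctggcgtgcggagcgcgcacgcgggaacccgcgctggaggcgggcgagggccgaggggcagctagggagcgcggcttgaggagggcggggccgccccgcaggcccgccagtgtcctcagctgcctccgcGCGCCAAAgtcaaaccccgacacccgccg
An E2F-type word was in 3 of the 14 windows, against 3.31% of the 35116 windows of all genes in the table, and those windows belonged to TYMS, DUT and DCK. CCAAT was in 6 of the 14 windows, of RRM1, RRM2, TK1, CAD and DHODH, against 34.6% of all windows. TTTGAA was in 3 windows, of RRM1, DUT and UMPS, against 15.2%, and CACGTG was in 2 windows, of DCK and DHODH, against 7.26%. The other window of TK1 and the other 3 windows of DUT held none of these words. A match is a run of letters and was not tested for binding. Among the 9 genes, E2F-type words were found only in genes that were higher in Ota cells at 72 h. They were absent from the windows of RRM1, RRM2 and TK1, which were higher too. Each of the other words was found both in genes higher at 72 h and in at least 1 of the de novo pyrimidine genes. Whether any word bears on the levels was not tested.

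**Figure D1:**
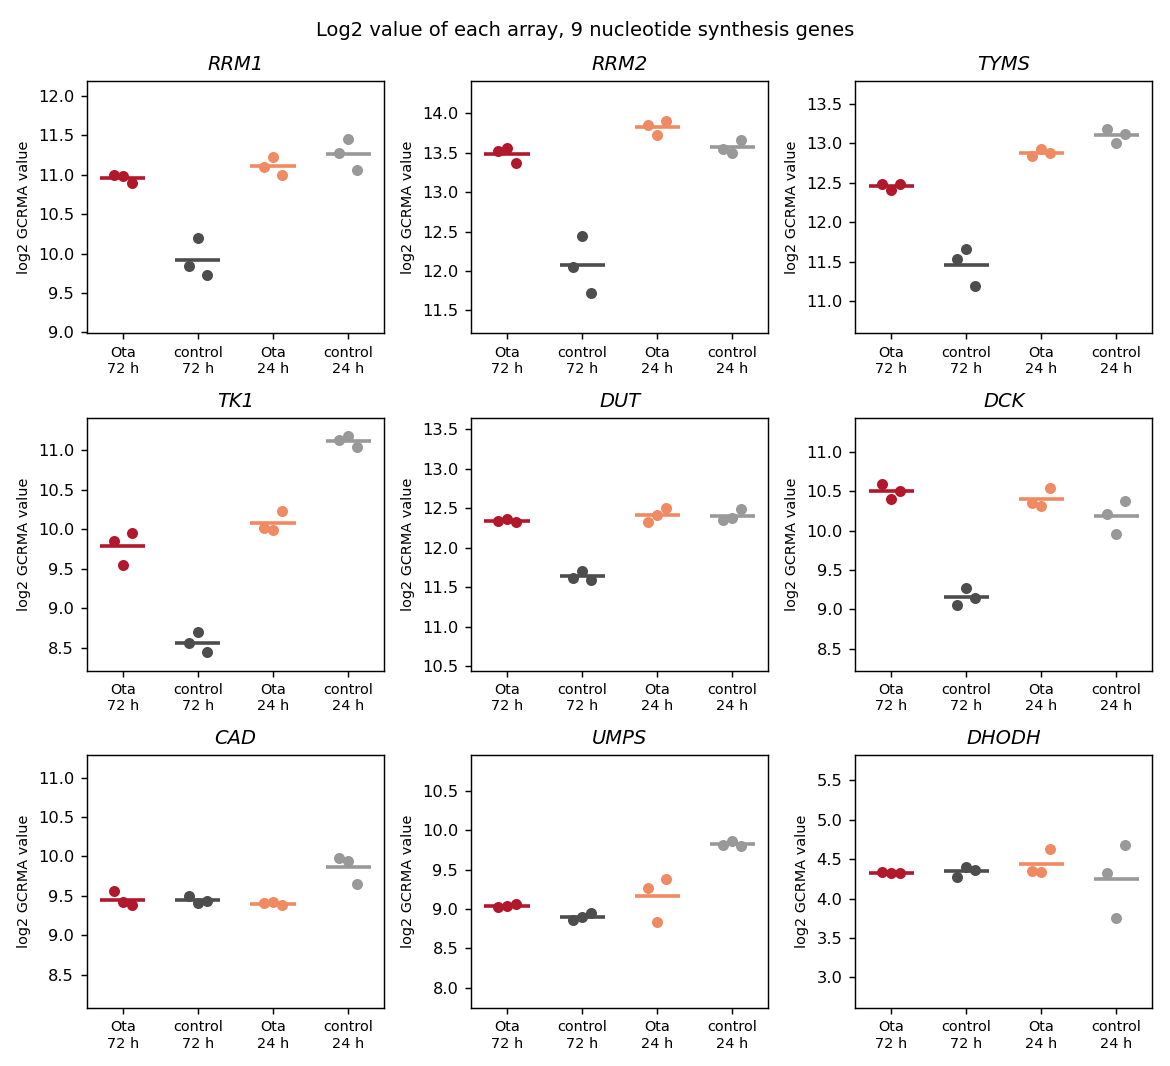
Log2 GCRMA value (vertical axis) of each nucleotide synthesis gene on the 12 arrays, with points for arrays and lines for the means of 3 arrays; the axes differ in position between genes, so heights are not comparable across panels. In RRM1, RRM2, TYMS, TK1, DUT and DCK the 3 control arrays at 72 h lie below the other 9, and in CAD and UMPS the 3 control arrays at 24 h lie above the other 9.

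At 72 h, 6 of the 9 genes were higher in Ota cells than in control cells and none was lower (0 of 9), where 17.1% of all genes tested were higher and 14.9% lower at an adjusted p below 0.05. The 6 were the genes of deoxynucleotide supply, RRM2, DCK, TK1, RRM1, TYMS and DUT, at 1.63 to 2.66 times their control level. The 3 enzymes of de novo pyrimidine synthesis, CAD, UMPS and DHODH, did not pass the test. The median log2 difference of the 9 genes was 1.00, against 0.01 over all genes tested. In a bulk culture, fewer cells with a transcript and less of it per cell cannot be told apart.

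The transcripts of both subunits of ribonucleotide reductase were higher in Ota cells at 72 h. RRM2, which encodes the small subunit that carries the radical of the reaction, read 13.52, 13.55 and 13.37 in Ota cells at 72 h, against 12.05, 12.44 and 11.72 in control cells. The groups did not overlap, and the log2 difference was 1.41 ± 0.15 (SE, n = 3 each), or 2.66-fold, with an adjusted p of 7.2e-05. RRM1, which encodes the large, catalytic subunit, read 11.00, 10.98 and 10.89 in Ota cells against 9.84, 10.19 and 9.73 in control cells. It too was higher on every Ota array than on any control array, by 1.04 ± 0.13, with an adjusted p of 0.000197.

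The genes of the thymidylate branch were higher too. TYMS, thymidylate synthase, read 12.49, 12.41 and 12.48 in Ota cells at 72 h, against 11.53, 11.66 and 11.19 in control cells, a difference of 1.00 ± 0.11 with an adjusted p of 9.5e-05. DUT, the dUTP diphosphatase, read 12.34, 12.37 and 12.33 in Ota cells and 11.62, 11.71 and 11.59 in control cells. Its difference of 0.71 ± 0.08 was the lowest of the 6, and its 3 Ota arrays lay within a few hundredths of each other (adjusted p 9.6e-05).

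The salvage kinases were higher in Ota cells as well. DCK, deoxycytidine kinase, which phosphorylates deoxycytidine, deoxyadenosine and deoxyguanosine, read 10.59, 10.39 and 10.51 in Ota cells at 72 h, against 9.06, 9.27 and 9.15 in control cells. The difference was 1.34 ± 0.12, or 2.53-fold, with an adjusted p of 2.2e-05. TK1, the cytosolic thymidine kinase, read 9.85, 9.55 and 9.95 in Ota cells and 8.55, 8.70 and 8.44 in control cells. It was 2.33-fold higher, at 1.22 ± 0.12, with an adjusted p of 3.6e-05.

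In de novo pyrimidine synthesis no difference passed the test at 72 h with the probe sets read here. CAD, the enzyme of the first 3 steps, read 9.56, 9.42 and 9.38 in Ota cells and 9.49, 9.41 and 9.44 in control cells, and the groups overlapped. The log2 difference of 0.01 had a 95% interval from -0.21 to 0.22. UMPS, which closes the pathway at uridine monophosphate, read 9.03, 9.03 and 9.07 in Ota cells and 8.87, 8.89 and 8.95 in control cells. These arrays did not overlap, but the difference of 0.14 missed the threshold, with a 95% interval from -0.13 to 0.40 and an adjusted p of 0.414. When the probe sets of a gene were averaged, UMPS passed as higher (0.31, adjusted p 0.0457). That mean takes in UMPS probe sets near the floor. DHODH, the mitochondrial dihydroorotate dehydrogenase, read 4.33, 4.32 and 4.33 in Ota cells and 4.28, 4.40 and 4.36 in control cells. It lay close to the filter, and the interval of its difference, -0.42 to 0.38, was the widest of the 9.

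**Figure D2:**
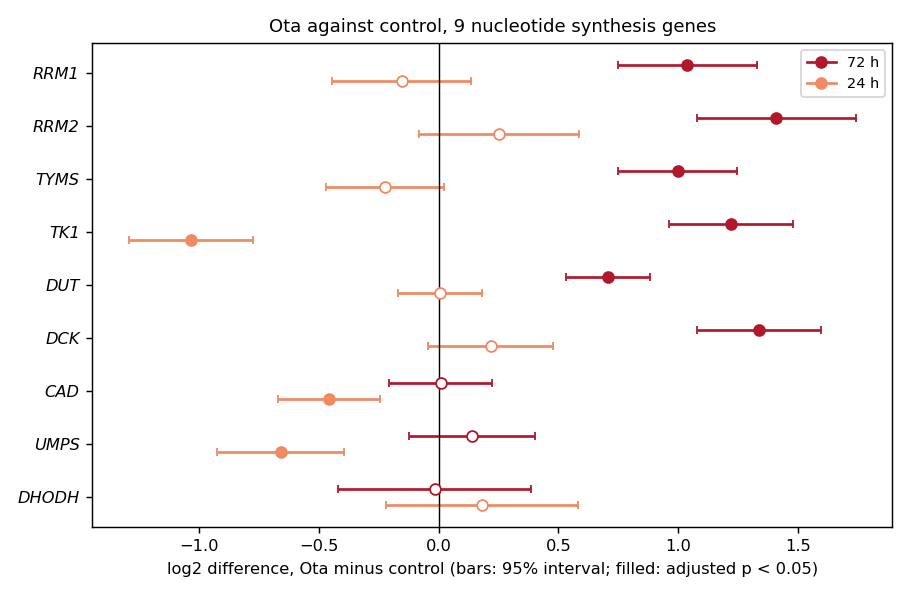
Log2 difference between Ota and control cells (horizontal axis) for each gene at 72 h and at 24 h, with 95% intervals from the fit and filled points for an adjusted p below 0.05. At 72 h the 6 genes of deoxynucleotide supply lie between 0.71 and 1.41, while at 24 h the filled points are TK1, UMPS and CAD, all below 0.

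At 24 h, none of the 9 genes was higher in Ota cells (0 of 9) and 3 were lower, TK1, UMPS and CAD, where 9.44% of all genes tested were higher and 21.6% lower. TK1 was the only gene of deoxynucleotide supply among the 3. The median log2 difference of the 9 genes was -0.16, against -0.06 over all genes tested. The median over all genes moved to 0.07 when the arrays were shifted to 1 common median, and the split of changed genes then was 1881 higher and 1694 lower, in place of 1010 higher and 2307 lower. TK1, UMPS and CAD were lower under that scaling too.

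TK1 read 10.01, 10.00 and 10.23 in Ota cells at 24 h, against 11.13, 11.18 and 11.04 in control cells. Its level was 2.05-fold lower, at -1.04 ± 0.12, with an adjusted p of 7.7e-05, so that TK1 was higher at 72 h and lower at 24 h. UMPS read 9.27, 8.84 and 9.38 in Ota cells and 9.81, 9.86 and 9.80 in control cells. It was lower by 0.66 ± 0.12, with an adjusted p of 0.00168, and replicate 2 of the Ota cells was the lowest. That call was lost when the probe sets of a gene were averaged (-0.24, adjusted p 0.124), a mean that takes in 2 UMPS probe sets near the floor. CAD read 9.41, 9.42 and 9.38 in Ota cells and 9.99, 9.95 and 9.66 in control cells. It was lower by 0.46 ± 0.10, with an adjusted p of 0.00417. In all 3 genes every Ota array was below every control array, as in 27.3% of all genes tested.

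The other 6 genes did not pass the test at 24 h. RRM2 read 13.85, 13.72 and 13.90 in Ota cells and 13.55, 13.50 and 13.67 in control cells. Every Ota array was above every control array, as in 15.4% of all genes tested. Its difference of 0.25 still had an interval from -0.08 to 0.58. RRM1 read 11.10, 11.22 and 11.00 in Ota cells and 11.28, 11.45 and 11.07 in control cells, with overlap and a difference of -0.16. TYMS, at 12.84, 12.92 and 12.88 in Ota cells and 13.19, 13.01 and 13.12 in control cells, differed by -0.22 with an adjusted p of 0.16. None of these 3 differences passed the test with the probe sets read here. In TYMS every Ota array was below every control array, as in 27.3% of all genes tested. TYMS passed as lower in 2 other settings, and over the settings its lowest difference was -0.42 and its lowest adjusted p 0.00374. DUT (12.32, 12.41 and 12.50 in Ota cells, 12.35, 12.38 and 12.49 in control cells) differed by 0.01, with an interval from -0.17 to 0.18. DCK (10.35, 10.31 and 10.53 in Ota cells, 10.21, 9.95 and 10.38 in control cells) differed by 0.22, and passed only under the shift to a common median, at 0.34 with an adjusted p of 0.0275. DHODH (4.34, 4.33 and 4.62 in Ota cells, 4.33, 3.76 and 4.68 in control cells) differed by 0.18, and 1 control array lay below the filter.

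The difference between the response at 72 h and the response at 24 h was itself tested. It passed the test above 0 in 8 of the 9 genes and below 0 in none (0 of 9), where 15.5% of all genes tested were higher and 5.79% lower. TK1 led with 2.26 ± 0.17 (adjusted p 3.3e-05), rank 8 by p among the 10699 genes. TYMS followed with 1.22 ± 0.16, RRM1 with 1.19 ± 0.19, RRM2 with 1.16 ± 0.21 and DCK with 1.12 ± 0.17. UMPS had 0.80 ± 0.17, DUT 0.70 ± 0.11 and CAD 0.47 ± 0.14, while DHODH, at -0.20 ± 0.26, did not pass (adjusted p 0.627). For UMPS and CAD the response that had passed on its own was the lower level than in control cells at 24 h. For TYMS, RRM1, RRM2, DCK and DUT it was the higher level than in control cells at 72 h. The call of CAD was near the threshold (adjusted p 0.0331) and was lost in 13 of 22 other settings, 10 of them with an array left out; it was kept without control replicate 3 at 24 h (adjusted p 0.0083) and without Ota replicate 3 at 72 h (adjusted p 0.0433). The median of the 9 genes was 1.12, against 0.09 over all genes, and that median over all genes moved to -0.05 under the shift to a common median, with 1164 genes higher and 1187 lower in place of 1659 and 619. A repeated quantile normalization gave 1397 higher and 843 lower.

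**Figure D3:**
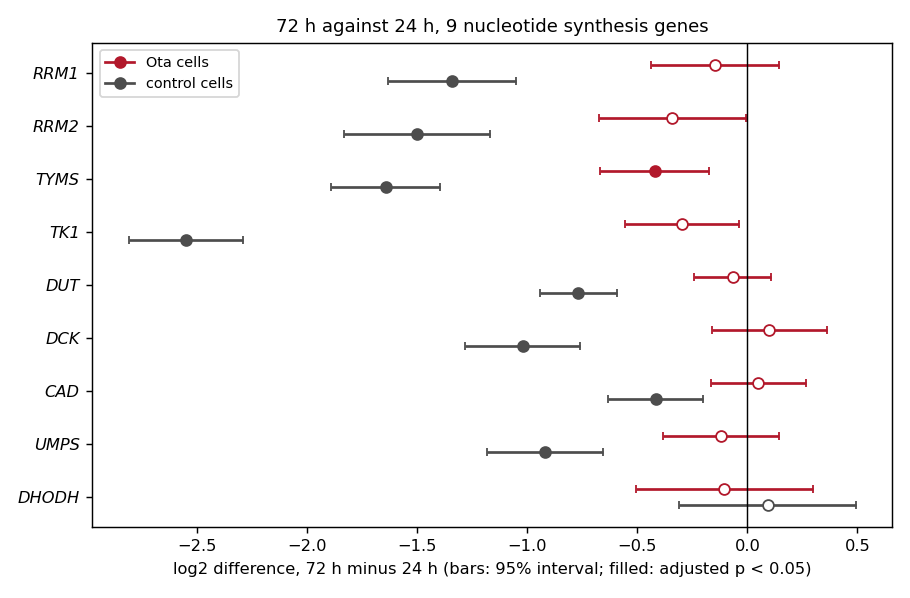
Log2 difference between 72 h and 24 h (horizontal axis) in Ota cells and in control cells, with 95% intervals from the fit and filled points for an adjusted p below 0.05. In control cells 8 genes lie between -2.55 and -0.42, and in Ota cells the 9 genes lie between -0.42 and 0.10.

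Within each treatment, cells at 72 h were also compared with cells at 24 h. In Ota cells, 1 of the 9 genes was lower at 72 h than at 24 h and none was higher (0 of 9), where 9.99% of all genes tested were lower and 22.2% higher. That gene was TYMS, at -0.42 ± 0.11 with an adjusted p of 0.0153, and the call was lost without replicate 2 of the Ota cells at 24 h (adjusted p 0.051) or at 72 h (adjusted p 0.0529). RRM2 had a difference of -0.34, with an interval from -0.67 to -0.01 and an adjusted p of 0.108, and TK1 one of -0.30, from -0.55 to -0.04, with an adjusted p of 0.0766. The other 6 genes lay between -0.15 and 0.10. RRM2 passed without control replicate 2 or 3 at 72 h (adjusted p 0.0358 and 0.0458), TK1 without Ota replicate 3 at 72 h (adjusted p 0.0497) and UMPS without Ota replicate 2 at 24 h (-0.28, adjusted p 0.0335). Under the shift to a common median 3 of the 9 genes were lower, the median over all genes moved to -0.05, against 0.08, and the changed genes split into 1666 higher and 2008 lower, in place of 2378 and 1069. With repeated quantile normalization they split into 1944 and 1395.

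In control cells, 8 of the 9 genes were lower at 72 h than at 24 h and none was higher (0 of 9), where 23.6% of all genes tested were lower and 22.7% higher. TK1 was 5.86-fold lower at 72 h, at -2.55 ± 0.12 with an adjusted p of 1.9e-07, rank 8 by p among all genes. TYMS was 3.12-fold lower, RRM2 2.83-fold, RRM1 2.54-fold and DCK 2.03-fold, although the dimmer probe set of RRM2 gave 5.76-fold. UMPS was 1.89-fold, DUT 1.70-fold and CAD 1.34-fold lower, and DHODH differed by 0.09, from -0.31 to 0.49. The difference between Ota and control cells at 72 h and the fall in control cells over time share the 3 control arrays at 72 h, and that fall shares the 3 control arrays at 24 h with the comparison at 24 h.

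The order of the group means shows how the levels relate. Control cells at 72 h had the lowest mean in RRM1, RRM2, TYMS, TK1, DUT, DCK and UMPS, and in each of these genes their arrays did not overlap with those of the next group in the order. That group was Ota 72 h except in DCK, where it was control 24 h. Of all genes tested, 26% had every Ota array at 72 h above every control array at 72 h, and 27.7% had every control array at 72 h below every control array at 24 h. In UMPS, replicate 2 of the Ota cells at 24 h (8.84) lay below all 3 control arrays at 72 h. The highest mean was that of control cells at 24 h in RRM1, TYMS, TK1, CAD and UMPS, of Ota cells at 24 h in RRM2, DUT and DHODH, and of Ota cells at 72 h in DCK. TYMS and TK1 had no overlap between any neighbouring groups, in the order control 24 h, Ota 24 h, Ota 72 h and control 72 h. Of all genes tested, 27.3% had every Ota array at 24 h below every control array at 24 h. Every Ota array at 72 h was below every Ota array at 24 h in 19.4%. Neighbours overlapped among the 3 higher groups of DUT and DCK, among the 3 lower groups of CAD and throughout the order of DHODH. Groups further apart in the order could still be separate, as were Ota 72 h and control 24 h in DCK, and Ota 72 h and Ota 24 h in DHODH. In DHODH, which lay close to the filter, the gap was narrow: the highest Ota array at 72 h read 4.331 and the lowest at 24 h 4.334. That difference over time did not pass the test (adjusted p 0.697).

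Several genes had more than 1 probe set above the filter, and these were fitted on their own among 22477 probe sets. At 72 h, 12 of the 16 tested were higher in Ota cells, where 16.4% of all probe sets were, and the other 4 were those of CAD, UMPS and DHODH. The probe sets of a gene gave similar sizes for RRM1 (1.04 and 1.10), RRM2 (1.41 and 1.37) and TK1 (1.22 and 1.08). TYMS gave 1.00 and 1.32, and DUT gave 0.71, 0.74 and 1.29, the last from its dimmest probe set. At 24 h, 6 of the 16 were lower, where 18.1% of all probe sets were. They were both of TK1, both of UMPS, that of CAD and the dimmer TYMS probe set, which was lower by 0.42 with an adjusted p of 0.00294. RRM2 had opposite signs at 24 h, 0.25 and -0.19, and neither passed. Over time in Ota cells 4 of the 16 were lower, where 9.94% of all probe sets were. They were both of TYMS, the dimmer one of TK1 (-0.51) and the dimmer one of RRM2 (-0.97, adjusted p 0.0025). For RRM2 and TK1 that comparison thus depends on the probe set read. Over time in control cells 15 of the 16 were lower, where 19.7% of all probe sets were, but the sizes differed within genes: RRM2 was 2.83-fold and 5.76-fold lower at 72 h, TYMS 3.12-fold and 4.45-fold, and DUT 1.70-fold, 2.01-fold and 2.76-fold. The genes DUT and UMPS were read from _x_at probe sets, whose probes may also match other transcripts, and for both the probe set of another kind gave the same calls in the Ota comparisons.

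**Figure D4:**
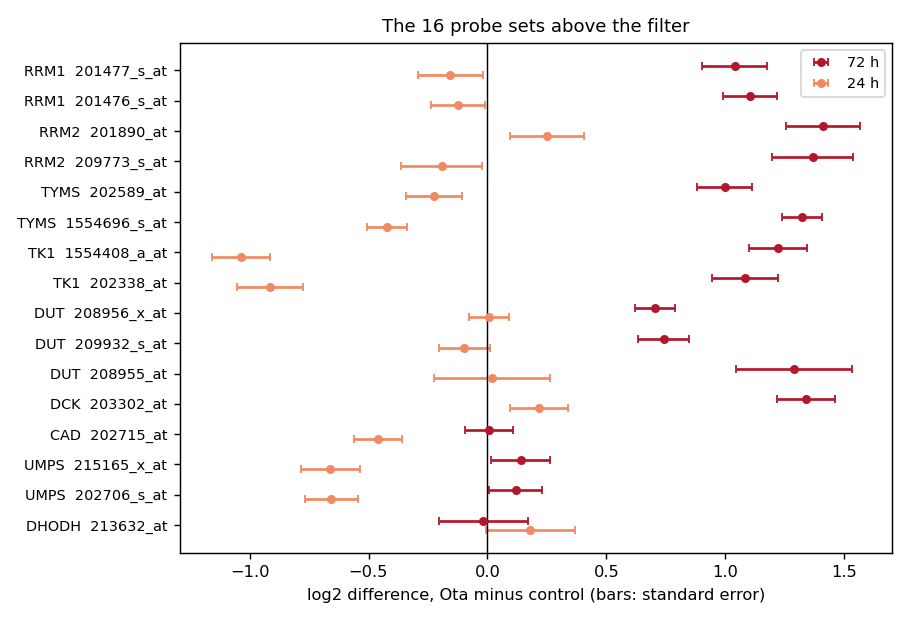
Log2 difference between Ota and control cells (horizontal axis) for each of the 16 probe sets above the filter, at 72 h and at 24 h, with bars for the standard error of the fit. At 72 h the 12 probe sets of RRM1, RRM2, TYMS, TK1, DUT and DCK lie between 0.71 and 1.41, and at 24 h they lie between -1.04 and 0.25.

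For each gene, the other genes whose log2 values followed it most closely over the 12 arrays were listed as a description. The 12 arrays form 4 groups and share a group's mean, and each name is the closest of the 10699 genes tested. LIG1, a DNA ligase of replication, came first for RRM1 (r of 0.984). FANCI came first for RRM2 (0.982), BRIP1 for TYMS (0.992), FIGNL1 for TK1 (0.991) and CDC45, a part of the replicative helicase, for DUT (0.992). XKR4 came first for DCK (0.992), THOC6 for CAD (0.973), CDCA4 for UMPS (0.975) and MYSM1 for DHODH (0.928).

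Of 47 other genes of nucleotide metabolism, 38 were tested. At 72 h, 17 of them (44.7%) were higher in Ota cells, against 17.1% of all genes tested, and 4 (10.5%) were lower, against 14.9%; 17 missed the threshold, and the median log2 difference was 0.18, against 0.01 over all genes. At 24 h, 6 (15.8%) were higher, against 9.44% of all genes, and 19 (50%) were lower, against 21.6%, with a median of -0.29, against -0.06. The difference of responses was higher for 16 (42.1%, against 15.5%) and lower for 1 (2.63%, against 5.79%).

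Of the genes listed for deoxynucleotide supply and turnover, 3 of 9 were higher at 72 h (33.3%, against 17.1% of all genes). None was lower (0 of 9, against 14.9%). DTYMK, which phosphorylates thymidine monophosphate, was higher by 0.92 ± 0.11 (adjusted p 0.000137). DCTPP1, which breaks down dCTP, was higher by 0.74 ± 0.12, and the mitochondrial thymidine kinase TK2 by 0.71 ± 0.11. The TK2 call was lost with the probe set of largest spread (0.37, adjusted p 0.242). At 24 h, 2 of the 9 were higher (22.2%, against 9.44% of all genes) and 4 lower (44.4%, against 21.6%). Among them were DGUOK, a mitochondrial kinase, at 0.43 ± 0.09, and the nucleotidase NT5C, at -0.85 ± 0.18. DCTD, which makes dUMP from dCMP, was lower by 0.36 ± 0.10 at 24 h. In the folate steps that feed TYMS, GGH was higher by 0.90 ± 0.16 and MTHFD1 by 0.42 ± 0.09 at 72 h. FPGS, which adds glutamates to folate, was lower by 1.19 ± 0.12 at 24 h (adjusted p 3.8e-05).

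Of 6 genes of pyrimidine salvage, CTP synthesis and breakdown, 3 were higher at 72 h (50%, against 17.1% of all genes) and none lower (0 of 6, against 14.9%). At 24 h, 1 was higher (16.7%, against 9.44%) and 3 lower (50%, against 21.6%). In control cells 1 was lower at 72 h than at 24 h (16.7%, against 23.6%). CTPS1, a CTP synthase, was higher at 72 h, at 0.72 ± 0.14, and lower at 24 h, at -0.88 ± 0.14, and its difference of 1.61 was the largest among the other genes named. The second CTP synthase, CTPS2, was higher at both times (0.54 ± 0.12 at 72 h, 0.48 ± 0.12 at 24 h), but its probe sets disagreed, and the probe set of largest spread gave -0.05 at 72 h and -0.85 at 24 h. UCK1, a uridine-cytidine kinase, was lower by 0.69 ± 0.10 at 24 h. UCKL1 was higher by 0.33 ± 0.11 at 72 h, a call lost in 15 of 22 other settings. Of 4 nucleotide kinases, CMPK2 (0.64 ± 0.15) and NME1 (0.51 ± 0.12) were higher at 72 h (50%, against 17.1% of all genes). At 24 h CMPK1 (0.34 ± 0.08) and GUK1 (0.34 ± 0.11) were higher (50%, against 9.44%).

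Of 11 genes of de novo purine synthesis, 4 were higher at 72 h (36.4%, against 17.1% of all genes) and 2 lower (18.2%, against 14.9%). At 24 h, 1 was higher (9.09%, against 9.44% of all genes) and 7 were lower (63.6%, against 21.6%). PAICS was higher by 0.49 ± 0.08 at 72 h. IMPDH2, the rate-limiting enzyme of guanine nucleotide synthesis, was lower at both times, at -0.83 ± 0.13 at 72 h and -0.70 ± 0.13 at 24 h, and so was ADSL, at -0.48 ± 0.10 and -0.54 ± 0.10. GMPS was lower at 24 h, at -0.73 ± 0.10, but its probe set of largest spread gave 0.83. Of 5 purine salvage genes, 3 were higher (60%, against 17.1%) and 2 lower (40%, against 14.9%) at 72 h. At 24 h, 4 were lower (80%, against 21.6%). HPRT1 (0.44 ± 0.09 at 72 h, -0.30 ± 0.09 at 24 h) and PNP (0.62 ± 0.13 and -0.42 ± 0.13) changed sign between the times, while APRT was lower at both (-0.76 ± 0.14 and -0.53 ± 0.14). Of the calls at 24 h, that of GUK1 was lost in 10 other settings, HPRT1 in 7, PNP in 6, and APRT and DCTD in 4 each.

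**Figure D5:**
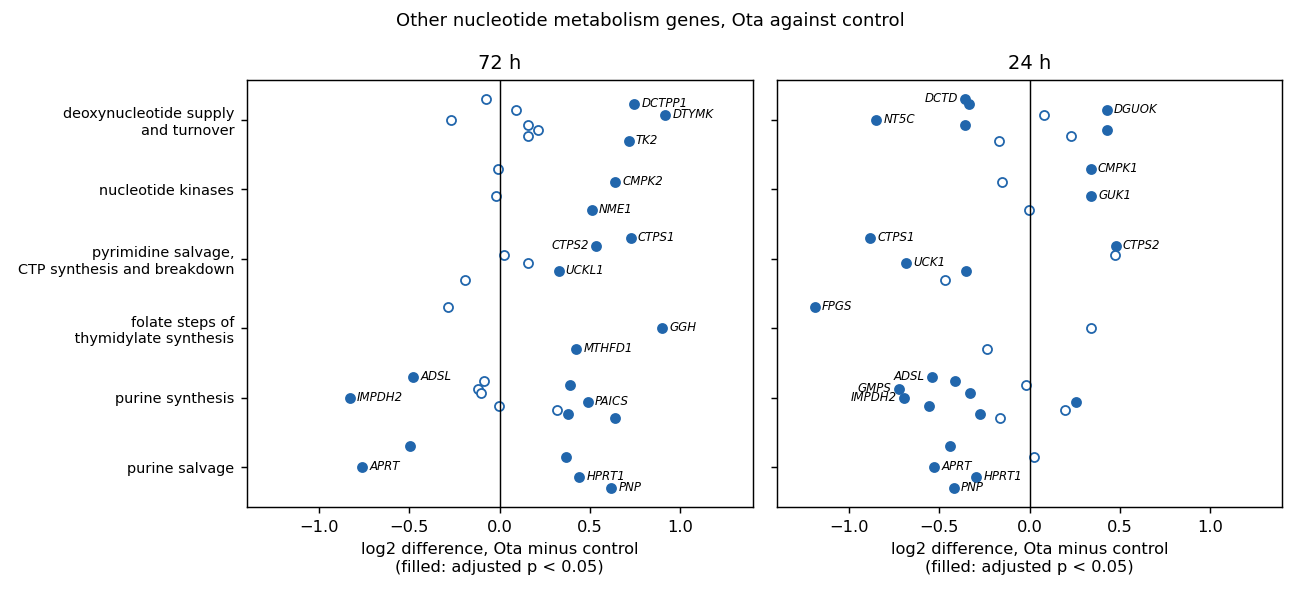
Log2 difference between Ota and control cells (horizontal axis) for the 38 other genes of nucleotide metabolism, grouped by pathway, at 72 h and at 24 h; filled points have an adjusted p below 0.05 and the genes named in the text are labelled. Filled points number 17 above and 4 below 0 at 72 h, and 6 above and 19 below 0 at 24 h.

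Genes of S phase and proliferation are given as context. Of 14 such genes, 13 were higher in Ota cells at 72 h (92.9%, against 17.1% of all genes) and none lower (0 of 14), with a median of 0.86. At 24 h, 5 were lower (35.7%, against 21.6% of all genes) and none higher (0 of 14), with a median of -0.32. PCNA, the sliding clamp of DNA polymerase, was higher by 1.14 ± 0.14 at 72 h and had -0.39 ± 0.14 at 24 h (adjusted p 0.0539). MKI67, a marker of dividing cells, was higher by 0.72 ± 0.18 at 72 h and lower by 0.76 ± 0.18 at 24 h. At 24 h the mean of its probe sets gave -0.19 and its probe set of largest spread 0.13, and neither passed. At 72 h against 24 h, 2 of the 14 were higher in Ota cells (14.3%, against 22.2% of all genes) and 4 lower (28.6%, against 9.99%), while in control cells 13 were lower (92.9%, against 23.6%), with a median of -1.43. Of the 3 fibroblast markers tested, 2 were higher in Ota cells than in control cells at 72 h (66.7%, against 17.1% of all genes). In control cells 3 were lower at 72 h than at 24 h (100%, against 23.6%). The summed log2 level of 6 markers ranged from 36.0 to 37.0 in Ota cells and 33.0 to 33.9 in control cells at 72 h, and from 37.4 to 38.3 in Ota cells and 37.5 to 38.4 in control cells at 24 h. COL1A1, LUM and DCN were above the filter and COL1A2, COL3A1 and PDGFRA were not. Of the 6 epithelial markers, 2 were lower in Ota cells than in control cells at each time and none was higher (0 of 6). That is 33.3%, against 14.9% of all genes at 72 h and 21.6% at 24 h. In control cells 3 were higher (50%, against 22.7%) and 1 lower (16.7%, against 23.6%) at 72 h than at 24 h. Their summed log2 level ranged from 65.4 to 65.9 in Ota cells and 67.0 to 67.9 in control cells at 72 h, without overlap, and from 64.6 to 66.4 in Ota cells and 65.6 to 67.5 in control cells at 24 h. SLC3A1, the 1 proximal tubule marker tested, was higher in Ota cells than in control cells at 72 h, by 0.80, and the summed level of the 10 such markers on the array ranged from 33.4 to 33.6 in Ota cells and 32.7 to 33.1 in control cells. What these genes and markers contribute to the values of the nucleotide synthesis genes was not tested.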

How the data were processed

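Expression was measured with Affymetrix arrays in 4 groups of 3 samples. The deposited values are log2 signals, 1 for each probe set and array, which the authors computed by GCRMA according to the submitters' processing notes, with its version not given in the sources used here. GCRMA subtracts a background modelled from probe sequence and normalizes arrays by quantiles, so low values sit on a floor and a shift common to all RNA would be largely removed. Arrays have no read depth, and their number limits the precision.

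Control probe sets (62) were left out. Gene names came from the platform annotation, updated through RefSeq gene records. Each gene was read from its probe set with the highest mean, required to exceed 4 on the log2 scale on 3 or more arrays, and fitted with 1 mean per group over the 12 arrays in limma 3.58.1 under R 4.3.3 (residual degrees of freedom 8, prior 3.31), with Benjamini-Hochberg adjustment over 10699 genes and a threshold of 0.05. The same fit was run on 22477 probe sets. Fits were tested on simulated data. Errors are the fit's standard errors (SE) or standard deviations (SD). The R package data.table (version 1.17.8) read the values, promoter windows were searched with Python 3.11.15 and pandas 2.3.3, and figures were drawn with matplotlib 3.10.9.

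The members and the lists were chosen with earlier results of these data known. All 9 members are named, and of each list of other nucleotide genes up to 3 changed genes with the smallest p per Ota comparison; of the genes most like a member the first of 3 is named. PCNA and MKI67 are named whatever their values. Alternatives were other scalings, filters, choices of probe set, moderation, samples in the fit, a replicate block and leaving out each array.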

Additional observations from a re-analysis of the deposited data

Results flagged for a closer look

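The response to Ota differed between 72 h and 24 h in 22 of the named genes, by limma's test of the difference itself, and the values are the log2 response at 72 h minus that at 24 h. Among the nucleotide synthesis genes the values were 2.26 for TK1, 1.22 for TYMS, 1.19 for RRM1, 1.16 for RRM2, 1.12 for DCK, 0.80 for UMPS, 0.70 for DUT and 0.47 for CAD. Among the other nucleotide genes they were 1.61 for CTPS1, 1.08 for DCTPP1, 1.04 for PNP, 0.90 for FPGS, 0.88 for TK2, 0.84 for UCK1, 0.83 for DTYMK and 0.79 for CMPK2. HPRT1 had 0.74, UCKL1 0.68, MTHFD1 0.66, GMPS 0.60, NME1 0.51 and CMPK1 -0.35. TK1, CTPS1, DCTPP1, PNP, HPRT1 and UCKL1 passed the test at both times, higher at 72 h and lower at 24 h. Of these calls at a single time, that of UCKL1 at 72 h was lost in 15 of 22 other settings. At 24 h that of HPRT1 was lost in 7 of 23 and that of PNP in 6 of 22. The difference of responses was lost in 17 of 22 other settings for NME1, in 13 of 22 for CAD, in 13 of 21 for CMPK1 and in 6 of 22 for CMPK2. For GMPS it was lost in 3 of 22, in 2 of which it changed sign: to -0.079 with averaged probe sets and to -0.26 with the probe set of largest spread.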

How the results depend on the processing

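The 6 genes higher in Ota cells at 72 h and the 8 lower in control cells at 72 h than at 24 h kept their calls under every alternative that gave them a value. At 24 h TK1 and CAD kept theirs and UMPS lost it with averaged probe sets. With that averaging UMPS passed as higher at 72 h (0.31, adjusted p 0.0457). TYMS, which had not passed at 24 h, was lower there in 2 of the other settings (lowest difference -0.42, lowest adjusted p 0.00374). Of 996 recomputed values of the 9 genes, 945 kept direction and side of the threshold, 16 fell below it, 16 passed it and 19 changed sign, none of these passing before or after (0). Those that changed sign at 24 h were DUT with repeated quantile normalization (-0.0095), averaged probe sets (-0.024) or with an array left out (-0.039 to 0.048, below 0 at -0.022 and -0.0089 too), RRM2 with the probe set of largest spread (-0.19) and DHODH without control replicate 2 (-0.068, with up to 0.39 when another array was left out). At 72 h they were CAD with the common median (-0.011), with repeated quantiles (-0.044), without Ota replicate 1 (-0.044) and without control replicate 2 (-0.012, with up to 0.045 for other arrays), and DHODH without that control (0.012, and down to -0.052 for others). Without control replicate 2 at 24 h, DHODH had 0.051 in the difference of responses, down to -0.41 for other arrays, and -0.16 over time in control cells, up to 0.30 for others. Over time in Ota cells they were DCK (-0.033) and CAD (-0.083) with the common median, CAD with repeated quantiles (-0.0034) or without Ota replicate 1 at 72 h (-0.0014, up to 0.087 for other arrays), and UMPS with averaged probe sets (0.091). Of the other genes, CTPS2 gave -0.19 at 24 h with averaged probe sets and, with the probe set of largest spread, -0.053 at 72 h and -0.85 at 24 h. GMPS gave 0.36 and 0.83 at 24 h and -0.079 and -0.26 in the difference under those choices, and MKI67 0.13 at 24 h with the probe set of largest spread. The cause was not tested.

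In Ota cells over time, where 1 member was lower in the fit described, 3 were with the common median or averaged probe sets, 2 with repeated quantiles, the largest spread, no shared-probe sets or the compared groups alone, and 0 to 2 with an array left out. Testing all probe sets, which takes in more features, raised the count of changes to 6344 at 72 h, 6971 at 24 h, 3814 for the difference, 6206 in Ota cells over time and 8970 in control cells over time. The share of higher among changed genes was 45.7% at 72 h, 34.2% at 24 h, 62.4% for the difference, 58.2% in Ota cells over time and 49.2% in control cells over time with repeated quantiles. Samples with the same replicate number correlated in their deviations at 0.07 to 0.45 (median 0.21, 14 of 18 pairs over 0.1). Samples with different numbers correlated at -0.29 to 0.15 (median -0.12, 1 of 36 pairs over 0.1). Of the 12 arrays, 11 correlated best with their own number, so arrays of 1 number shared some variation. The fit described leaves this likeness out, since not every same-number pair was over 0.1. With the replicate number as a block, which moved no member's call, 6 members changed at 72 h, 3 at 24 h, 8 in the difference, 1 in Ota cells over time and 8 in control cells over time, and over all genes 3874, 3815, 2831, 3982 and 5419 did in that order. Low signal limits DHODH and the 6 untested probe sets.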
